A study of Homo sapiens with 14 samples.

Results

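The comparison described here set PANC-1 cells after 3 h of DMSO against PANC-1 cells at 0 h of DMSO, across all miRNA entries of the count table. PANC-1 is an established human line from a pancreatic ductal carcinoma. The series asked how proanthocyanidins (PA, plant polyphenols, given at 20 µg/ml) alter transcripts at 3, 12 and 24 h, with DMSO as the vehicle. The rule took the DMSO 3 h pair and the DMSO 0 h pair, lettered A and B in each, which are 4 of the 14 libraries, and every row. The same cells, medium (DMEM with fetal bovine serum) and Trizol extraction applied to both groups. Cells without DMSO at 3 h were not analysed here, so time in culture, vehicle and any change of medium cannot be told apart. The series' design text speaks of a biological replicate, but the labels do not say whether A and B came from separate cultures, so the p-values measure the spread between these libraries, which may be technical in part.

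The table held 2848 entries, 2346 with a human miRNA name and 502 with only a serial name such as chr4_11323. After the filter on low counts, 810 entries were tested, 682 named and 128 unnamed. Total counts were 2762869 and 1781112 in the DMSO 3 h libraries, against 1550026 and 1131473 in the DMSO 0 h libraries, and ran from 1032391 to 3111014 over all 14. Levels are given as CPM, counts rescaled to a common library size after TMM correction, and changes as log2 of DMSO 3 h over DMSO 0 h with the SE of the edgeR fit. CPM takes no account of transcript length, and mature miRNAs are of nearly equal length, but cloning bias differs between them.

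A miRNA is cut from a hairpin transcript first by Drosha and then by Dicer, and 1 arm is usually kept in the Argonaute protein while the other is degraded. The seed, bases 2 to 8 of the mature miRNA, pairs with target mRNAs. Most mature miRNAs are long-lived once bound to Argonaute, and a smaller number turn over quickly in cultured cells. In ductal carcinoma lines miR-21-5p, a repressor of PDCD4, is among the most abundant.

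No entry passed in the main comparison (0%; edgeR quasi-likelihood test over all 14 libraries, Benjamini-Hochberg adjusted p under 0.05), and the smallest adjusted p was 0.548. At an unadjusted p under 0.05 there were 70 entries, 29 higher and 41 lower at 3 h, or 8.64% of those tested. That count was 37 without DMSO 3 h B, 110 and 113 without DMSO 12 h A and B, 121 without PA 24 h B and 124 with no filter on low counts. The fit with no filter tested every entry with a count, and 2247 entries had a count in the 4 compared libraries alone. Its 124 is therefore a smaller share than 8.64%. DESeq2 on the 14 libraries also called 0 entries. In the fit of the 4 compared libraries alone, 17 of 624 entries passed (2.72%), 6 higher and 11 lower at 3 h, and DESeq2 on the same 4 libraries called 17, 11 of them shared with edgeR. The higher entries were miR-146a-5p, miR-10a-5p, miR-125a-5p, miR-96-5p, miR-186-5p and miR-10b-5p. The lower ones were miR-380-5p, miR-4443, miR-4791, miR-7-1-3p, miR-4802-3p, miR-6715b-3p, miR-619-5p, miR-3171, chr6_15149, chr4_11323 and chr1_1009. Those of the 17 that lie outside the naming rule were named after their values were seen.

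The fits differ in the libraries that supply the spread, in the entries tested (624 against 810) and in the degrees of freedom (a median of 26.2 against 15.6), and what each adds was not tested. The median absolute log2 difference between libraries A and B was 0.258 for DMSO 3 h and 0.379 for DMSO 0 h, and 0.514 for DMSO 12 h, which the 14-library fit pools with them. With 4 libraries the spread is borrowed largely across entries. In a fit of 6 libraries, with the PA 3 h pair added, the DMSO 3 h comparison again gave 17. Leaving out a library moved the count of the 4-library fit widely: 79 entries passed without DMSO 0 h A, 28 without DMSO 0 h B, 6 without DMSO 3 h A and 1 without DMSO 3 h B, the lone library being assumed to vary like the other group. In the same order, 15, 14, 5 and 1 of the original 17 were among them, and 0 passed in all 4 of these fits.

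For miR-186-5p, miR-10b-5p and miR-619-5p, which passed in the 4-library fit, no mature sequence was found. Mature sequences of the other named miRNAs that passed there are shown first. They are from RefSeq on GRCh38.p14, 5′ to 3′, with the seed in capitals; 597 of the 682 named miRNAs tested had a sequence there. Those that were higher at 3 h came first.
miR-146a-5p: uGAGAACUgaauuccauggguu
miR-10a-5p: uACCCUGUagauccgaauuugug
miR-125a-5p: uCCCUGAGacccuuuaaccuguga
miR-96-5p: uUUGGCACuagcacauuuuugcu
The next were lower at 3 h.
miR-380-5p: uGGUUGACcauagaacaugcgc
miR-4443: uUGGAGGCguggguuuu
miR-4791: uGGAUAUGaugacugaaa
miR-7-1-3p: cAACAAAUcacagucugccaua
miR-4802-3p: uACAUGGAuggaaaccuucaagc
miR-6715b-3p: cUCAAACCggcugugccugugg
miR-3171: aGAUGUAUggaaucuguauauauc
The last are abundant miRNAs of these cells, and miR-27b-3p and miR-125b-5p, shown for the seeds they share with miR-27a-3p and miR-125a-5p.
miR-21-5p: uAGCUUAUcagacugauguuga
miR-100-5p: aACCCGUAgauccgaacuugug
miR-27a-3p: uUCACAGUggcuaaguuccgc
miR-29a-3p: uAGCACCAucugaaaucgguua
miR-22-3p: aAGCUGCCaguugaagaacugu
miR-27b-3p: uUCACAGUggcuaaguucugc
miR-125b-5p: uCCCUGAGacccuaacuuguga
No 2 of the 11 sequences shown of miRNAs that passed share a seed. miR-10b-5p, which also passed and is of the family of miR-10a-5p, had no sequence and is not covered by this. The seed of miR-125a-5p is that of miR-125b-5p, and miR-27a-3p shares its seed with miR-27b-3p. GC content had a median of 42.2% (39.1% to 50.0%) over 4 higher miRNAs and 43.5% (29.2% to 63.6%) over 7 lower ones, against 47.6% over the named miRNAs with a sequence.

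miR-146a-5p, an NF-kB-induced miRNA that represses IRAK1 and TRAF6, had 32086 and 39989.5 CPM in the DMSO 3 h libraries, against 25684 and 25597 CPM in the DMSO 0 h libraries. Both 3 h libraries lay above both 0 h libraries, and the 3 h pair was spread more widely. Its means were 36038 ± 5588 CPM at 3 h and 25640.4 ± 62.0 CPM at 0 h (SD, n = 2 each). The log2 fold change was 0.49 ± 0.14 (edgeR adjusted p = 0.548 over 14 libraries, 0.0435 over 4). The hairpin is on chromosome 5, 160485352 to 160485450, plus strand, in an exon of MIR3142HG on the same strand (GRCh38, GENCODE 29). The seed relative miR-146b-5p was at 199 and 219 CPM at 3 h and 208 and 242 CPM at 0 h, with groups that overlapped.

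miR-10a-5p and miR-10b-5p are encoded within the HOXB and HOXD clusters and belong to the same family. For miR-10a-5p there were 27194 and 29709.9 CPM in the DMSO 3 h libraries, against 18508 and 18306 CPM in the DMSO 0 h libraries, and the groups did not overlap. The log2 fold change was 0.63 ± 0.18 (edgeR adjusted p = 0.548 over 14 libraries, 0.00453 over 4). The hairpin, at chromosome 17, 48579838 to 48579947, minus strand, overlaps exons of HOXB4 and AC103702.1 and an intron of HOXB3 on the same strand. miR-10b-5p, far less abundant, had 380.0 and 353 CPM in the DMSO 3 h libraries, against 189.6 and 269.5 CPM in the DMSO 0 h libraries. Its log2 fold change of 0.68 ± 0.23 was close to that of miR-10a-5p (edgeR adjusted p = 0.548 over 14 libraries, 0.0435 over 4), and the libraries did not overlap. A single base can separate close family members, so reads of the rarer miR-10b-5p could be split with the more abundant miR-10a-5p in the authors' counting.

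miR-125a-5p shares a cluster on chromosome 19 with let-7e and miR-99b and had 4918 and 4667 CPM in the DMSO 3 h libraries, against 3326 and 3504 CPM in the DMSO 0 h libraries. Its log2 fold change was 0.49 ± 0.28 (edgeR adjusted p = 0.585 over 14 libraries, 0.0435 over 4), without overlap. Its clustered neighbours had log2 fold changes of 0.22 ± 0.16 for let-7e-5p and 0.07 ± 0.16 for miR-99b-5p, and its seed relative miR-125b-5p had 0.29 ± 0.22. miR-96-5p, of the miR-183 cluster and a repressor of FOXO transcription factors, had 4055 and 5250.3 CPM in the DMSO 3 h libraries, against 3371 and 2726 CPM in the DMSO 0 h libraries. The log2 fold change of miR-96-5p was 0.61 ± 0.29 (edgeR adjusted p = 0.574 over 14 libraries, 0.0394 over 4). miR-182-5p and miR-183-5p, from the same primary transcript, stood at 0.20 ± 0.17 and 0.11 ± 0.22, and the miR-183-5p groups overlapped.

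miR-186-5p had 2296 and 2633 CPM in the DMSO 3 h libraries, against 1543 and 1504 CPM in the DMSO 0 h libraries, a log2 fold change of 0.69 ± 0.24 (edgeR adjusted p = 0.548 over 14 libraries, 0.00472 over 4). miR-26a-5p, a repressor of EZH2 that CTDSPL and CTDSP2 introns encode, had 8898 and 8611 CPM in the DMSO 3 h libraries, against 6862 and 6155 CPM in the DMSO 0 h libraries. Its log2 fold change was 0.43 ± 0.14, and it did not pass over 14 libraries (edgeR adjusted p = 0.548) or over 4. Of the 6 miRNAs that were higher in the 4-library fit, 5 averaged over 1000 CPM, and the lowest averaged 303 CPM.

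**Figure D1:**
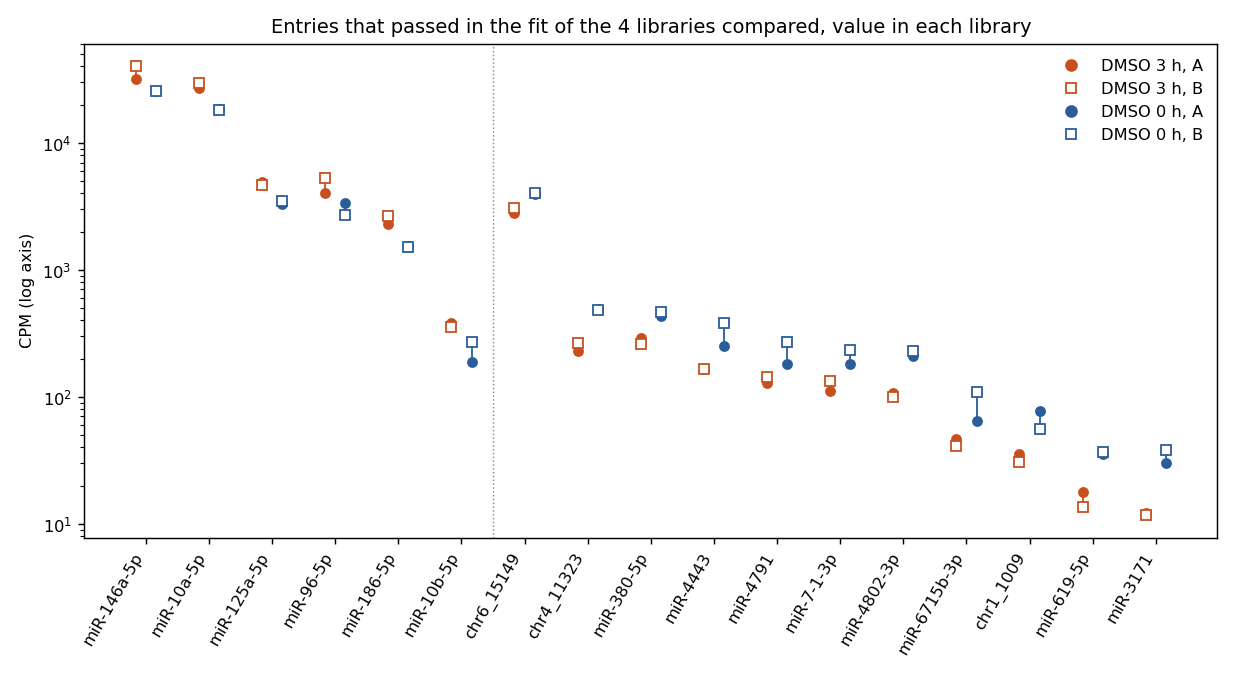
CPM in each library (log axis) of the 17 entries that passed in the fit of the 4 libraries compared, with DMSO 3 h left of DMSO 0 h, circles for library A, squares for library B and a line joining each pair. The 6 entries left of the dotted line were higher and the 11 right of it lower at 3 h, and the libraries of the groups do not overlap in any of them.

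Of the entries that were lower at 3 h, the most abundant was chr6_15149 at a mean of 3232 CPM, which is above miR-186-5p and miR-10b-5p of the higher ones. miR-380-5p, of the imprinted 14q32 cluster in an intron of MEG8, had 288 and 262 CPM in the DMSO 3 h libraries, against 434 and 462 CPM in the DMSO 0 h libraries. Its log2 fold change was -0.70 ± 0.29 (edgeR adjusted p = 0.548 over 14 libraries, 0.00853 over 4). miR-4802-3p, from an intron of RBM47, had 107 and 99.97 CPM in the DMSO 3 h libraries, against 209 and 230.1 CPM in the DMSO 0 h libraries. The 3 h values of miR-4802-3p were far below the 0 h values, at -1.08 ± 0.35 on the log2 scale (edgeR adjusted p = 0.548 over 14 libraries, 0.000745 over 4).

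miR-4443 had 167 and 167 CPM in the DMSO 3 h libraries, against 253 and 384 CPM in the DMSO 0 h libraries, with 3 h libraries that nearly coincided and 0 h libraries that did not. miR-7-1-3p, an arm of the miR-7-1 hairpin, from HNRNPK, had 112 and 132 CPM in the DMSO 3 h libraries, against 179.7 and 232 CPM in the DMSO 0 h libraries. The other arm of that family, miR-7-5p, was below miR-7-1-3p in each of these libraries. It had 107 and 108 CPM at 3 h and 103 and 76.4 CPM at 0 h. Its log2 fold change was 0.25 ± 0.22, where miR-7-1-3p had -0.76 ± 0.38. miR-4791 had 128 and 143 CPM at 3 h and 182 and 271 CPM at 0 h, and miR-6715b-3p had 46.6 and 40.9 CPM at 3 h and 64.4 and 108 CPM at 0 h. miR-3171, at chromosome 14 and in an intron of AL390334.1, had 12.2 and 11.7 CPM at 3 h and 30.4 and 37.8 CPM at 0 h. Its log2 fold change of -1.50 ± 0.42 rested on 32 and 20 counts at 3 h and 49 and 46 counts at 0 h. None of these 5 passed over 14 libraries (edgeR adjusted p = 0.548 for miR-3171).

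miR-619-5p, whose sequence also lies in repeats and which stood in the list of RNA fragments, had 18.0 and 13.4 CPM at 3 h and 35.3 and 37.0 CPM at 0 h. The unnamed chr4_11323 had 231 and 263 CPM at 3 h and 490.0 and 485 CPM at 0 h. Its log2 fold change was -0.98 ± 0.60 over 14 libraries (edgeR adjusted p = 0.614). In the 4-library fit it was -1.01 ± 0.15, with the smallest adjusted p of that fit (edgeR, 0.000433). chr6_15149 had 2818 and 3046 CPM at 3 h and 3929.6 and 4020.0 CPM at 0 h, and chr1_1009 had 35.5 and 30.4 CPM at 3 h and 76.8 and 55.9 CPM at 0 h. What the unnamed entries are was not described.

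Among the 20 smallest p-values of the main fit, several entries rested on few counts. miR-1257, whose sequence lies in an exon of TAF4, had 28.3 and 43.8 CPM in the DMSO 3 h libraries, against 14.9 and 18.1 CPM in the DMSO 0 h libraries, a log2 fold change of 1.12 ± 0.31. miR-570-3p was at 24.8 and 21.0 CPM at 3 h and 14.9 and 6.57 CPM at 0 h. miR-4488 had 16 and 4 counts at 3 h and 0 in both 0 h libraries. Against a floor of 3 counts over the 0 h group it was 4.36-fold higher at 3 h. The exact lower limit, for counting error only, was 3.23-fold. miR-4709-5p had 0 and 2 counts at 3 h and 10 and 6 at 0 h, a ratio of 0.0817 with a 95% exact interval of 0.00912 to 0.348 for counting error only. chr6_16223 had a ratio of 0.109 (0.0275 to 0.317), miR-562 of 0.140 (0.0474 to 0.345) and miR-6733-5p of 0.207 (0.0675 to 0.538). The others were chr12_26635 at 8.02 and 8.18 CPM at 3 h and 21.7 and 17.3 CPM at 0 h, chr20_37468 at 48.1 and 43.3 CPM at 3 h and 70.6 and 85.5 CPM at 0 h, chr12_26091 at 599 and 540.2 CPM at 3 h and 720.5 and 1049 CPM at 0 h and miR-3614-3p at 11.5 and 8.77 CPM at 3 h and 18.6 and 25.5 CPM at 0 h. None of the 20 passed (edgeR adjusted p = 0.548 for each).

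**Figure D2:**
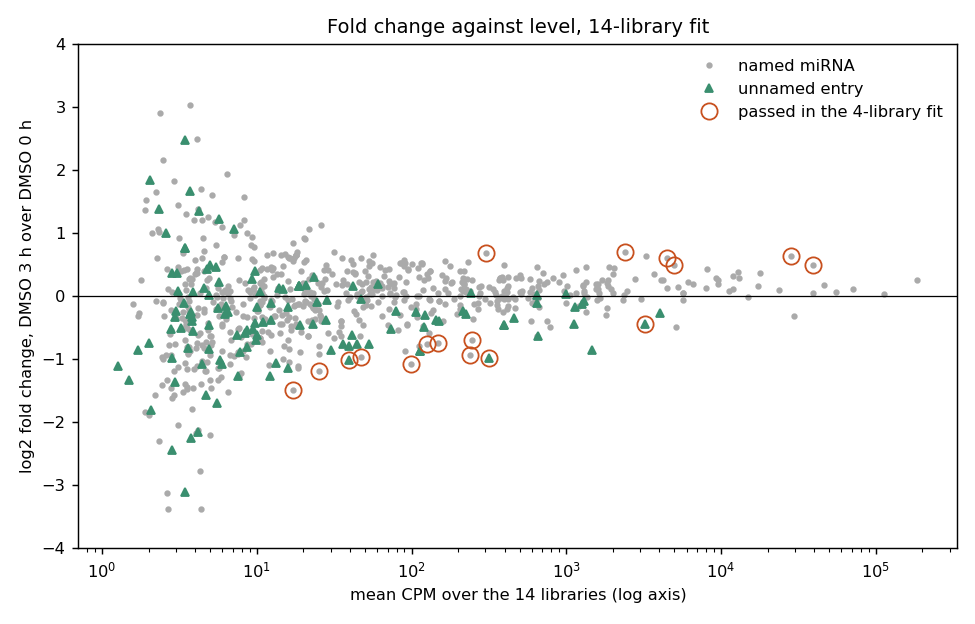
Log2 fold change of DMSO 3 h over DMSO 0 h against mean CPM over the 14 libraries (log axis) for 802 tested entries, with grey points for named miRNAs, green triangles for unnamed entries and rings for the 17 that passed in the 4-library fit. The 8 entries with a compared group at 0 counts are not drawn; the spread is widest at low CPM, and of the 6 ringed entries that are higher, 5 lie above 1000 CPM.

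The 10 most abundant miRNAs took 64.6% to 64.8% of the counts at 3 h and 63.9% to 64.7% at 0 h. miR-21-5p had 239598 and 229098 CPM in the DMSO 3 h libraries, against 221841 and 171635 CPM in the DMSO 0 h libraries, and the groups did not overlap. Its log2 fold change was 0.25 ± 0.15 (edgeR adjusted p = 0.613), and that of its other arm, miR-21-3p, was -0.31 ± 0.28. miR-100-5p had 103209 and 104917 CPM in the DMSO 3 h libraries, against 95528 and 107947 CPM in the DMSO 0 h libraries, with overlap. miR-27a-3p, a regulator of lipid and adipocyte genes, had 74426 and 71888 CPM in the DMSO 3 h libraries, against 67239.8 and 68016 CPM in the DMSO 0 h libraries, and miR-29a-3p, which represses collagens, had 63304 and 62901 CPM in the DMSO 3 h libraries, against 63186 and 57711 CPM in the DMSO 0 h libraries. miR-22-3p had 55291 and 44149.5 CPM in the DMSO 3 h libraries, against 44064 and 44218 CPM in the DMSO 0 h libraries, while log2 fold changes of 0.04 ± 0.15 and 0.10 ± 0.13 were found for miR-27b-3p and miR-24-3p.

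Precision was highest for these abundant entries. In the named class over 1000 CPM, 68 of 75 log2 fold changes had a 95% interval within ±1, and the median reach of that interval to either side was 0.377. For named entries over 100 CPM it was 187 of 212. The median log2 fold change over named miRNAs above 1000 CPM was 0.15, with 62 positive and 13 negative of 75, and over all 810 entries it was -0.01. With the library totals in place of TMM scaling, the median of all entries moved to -0.16, and the direction of abundant miRNAs near 0 turned with it. The 6 higher miRNAs of the 4-library fit were then still positive, at 0.34 or more against a median of -0.13, but 2 of 18 entries that passed were higher, and with DESeq2 size factors 2 of 7.

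Both 3 h libraries lay above both 0 h libraries for 189 of the 810 entries (23.3%) and below both for 184 (22.7%). The balance depended on the scaling: with library totals 111 lay above. Leaving out 1 of the 4 libraries, which makes a lack of overlap easier, gave 289 to 354 above and 314 to 379 below, and leaving out PA 24 h B gave 301 above. With no filter, which kept every entry with a count, there were 318 above and 340 below. With the DESeq2 fit there were 304 and 348, over all 2848 entries of the table. Both took in far more entries than 810, so these counts are smaller shares than 23.3% and 22.7%. Over all entries 396 log2 fold changes were positive and 412 negative. Named miRNAs over 1000 CPM had 39 above (52.0%) and 5 below. Unnamed entries had 8 above and 47 below, of 128 tested, with a median log2 fold change of -0.31 (-0.16 without DMSO 0 h B), against 0.03 for named miRNAs. The unnamed share of counts was 1.76% and 1.77% at 3 h and 2.24% and 2.61% at 0 h. Of 162 hairpins with both arms tested, the major arms had a median of 0.11 and the minor arms one of 0.08.

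The families of growth-related miRNAs are given by the tested members and their median log2 fold change, beside -0.01 over all entries and 0.15 over named miRNAs above 1000 CPM; none of their members passed over 14 libraries. Their counts of positive members and of members above both 0 h libraries stand beside 396 of 810 (positive) and 23.3% (above both) for all entries, and 62 of 75 and 52.0% for named miRNAs over 1000 CPM. The lists were miRNAs reported to respond to serum and growth factors, to NF-kB, to p53 or to hypoxia, miRNAs of quick turnover, and families. Serum-response miRNAs, 14 in all, were positive in 12 and had a median of 0.16, with 8 above both 0 h libraries (57.1%) and 1 below. Its members miR-212-3p and miR-155-5p, both induced in early responses, had -0.53 ± 0.39 and -0.05 ± 0.45, and miR-132-3p, co-transcribed with miR-212, had 0.24 ± 0.26. Of the quick-turnover list, 13 of 14 were positive, with a median of 0.26 and 9 above both 0 h libraries (64.3%). That list holds miR-16-2-3p (0.57 ± 0.31), miR-382-5p (0.55 ± 0.30) and miR-101-3p (-0.40 ± 0.33).

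The let-7 and miR-98 family, repressors of RAS and HMGA2, had 8 of 9 members positive, a median of 0.22, and 7 above both 0 h libraries (77.8%). let-7i-5p, the most abundant, had 11916 and 11463 CPM in the DMSO 3 h libraries, against 9649 and 9051 CPM in the DMSO 0 h libraries, and let-7f-5p had 9446 and 9040.2 CPM in the DMSO 3 h libraries, against 7714 and 7498 CPM in the DMSO 0 h libraries. The exception was let-7c-5p, at -0.47 ± 0.46, with overlap. It had 22.9 and 17.5 CPM at 3 h and 11.8 and 46.0 CPM at 0 h. DMSO 0 h A thus lay below both 3 h libraries and DMSO 0 h B above them. Members of this family differ by a few bases, so reads may be shared between them. The miR-15/16 family, which represses cyclin D1 and BCL2, had 6 of 7 positive and a median of 0.26, led by miR-15b-5p at 0.46 ± 0.19. Of miR-221 and miR-222, repressors of p27, all 4 arms were positive with a median of 0.31; miR-221-3p had 13544 and 11797 CPM at 3 h and 9587 and 9819.9 CPM at 0 h and miR-222-3p 1873 and 1532 CPM at 3 h and 1528 and 1392 CPM at 0 h.

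The NF-kB list had 7 of 9 positive and a median of 0.24, the family of miR-130, miR-301 and miR-454 had 3 of 4 and 0.33, the miR-181 family 3 of 4 and 0.17, the miR-30 family 4 of 5 and 0.15, and the miR-183 cluster 3 of 3 and 0.20. In the miR-17-92 clusters 9 of 11 were positive, with a median of 0.15. Of its members, miR-19b-3p had 0.64 ± 0.34, miR-93-5p 0.34 ± 0.18, miR-92a-3p 0.27 ± 0.17 and miR-20a-5p 0.25 ± 0.21. Nearer to 0 were the medians of the miR-23/27/24 clusters (0.10, 5 of 5 positive), miR-99/100 with miR-125 (0.07) and the miR-29 family (0.06). In the p53 list the median was -0.07, with 3 of 7 positive; miR-34a-5p had -0.07 ± 0.25. The hypoxia and sterol list had 0.05, and its hypoxia-induced miR-210-3p had 1456 and 1379 CPM at 3 h and 2005 and 1501 CPM at 0 h. With library totals the medians stayed positive for let-7 (0.07), quick turnover (0.11), miR-15/16 (0.11), miR-221 with miR-222 (0.16), NF-kB (0.09), serum response (0.01), miR-130 (0.18), miR-181 (0.02) and miR-183 (0.05), and turned negative for miR-17-92, miR-23/27/24, miR-29, miR-30, miR-99/100, miR-200 and hypoxia. Single libraries moved the medians too. Without DMSO 0 h B they were 0.09 for miR-130, 0.14 for miR-15/16, 0.08 for miR-17-92, 0.12 for miR-183, 0.27 for miR-181, 0.02 for miR-29, 0.21 for miR-99/100, 0.14 for p53 and -0.07 for hypoxia. Without DMSO 0 h A they were 0.33 for miR-17-92, 0.32 for miR-183, 0.14 for miR-29, -0.02 for miR-99/100 and 0.01 for p53. Without DMSO 3 h A they were 0.08 for serum response, 0.18 for miR-130, 0.27 for miR-17-92, 0.06 for miR-23/27/24 and 0.12 for miR-99/100, and without DMSO 3 h B 0.13 for miR-15/16, 0.27 for serum response, 0.03 for miR-99/100 and 0.01 for p53. Leaving out PA 24 h B moved the median of all entries to 0.11 and of named miRNAs over 1000 CPM to 0.28, and the list medians with them.

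**Figure D3:**
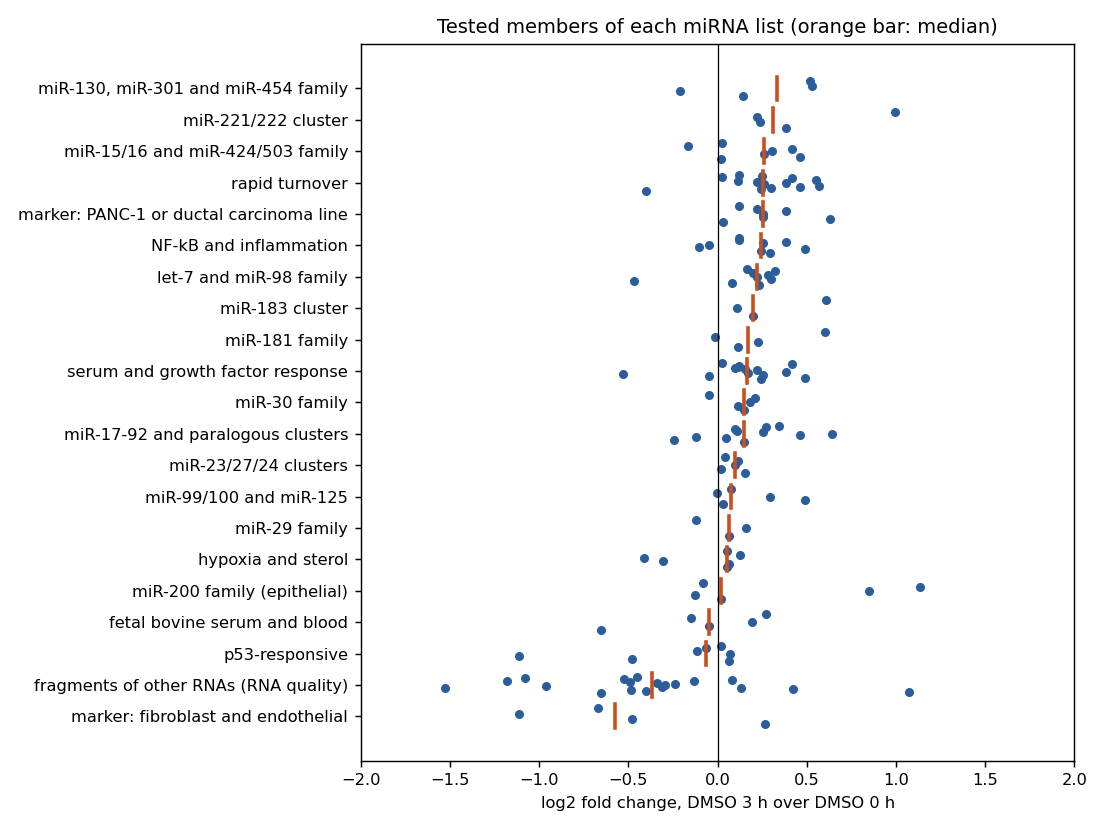
Log2 fold change of DMSO 3 h over DMSO 0 h of each tested member (points) of the miRNA lists with at least 3 tested members, and the list's median (bar). Most lists of abundant miRNAs lie right of 0 and the list of RNA fragments left of it; miR-4488, at 0 counts in both 0 h libraries, is not drawn.

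Markers of the line and of other cell types were summed over each library. The 7 line markers, such as miR-21-5p, miR-31-5p and miR-196a-5p, summed to 397240.0 and 387091 CPM at 3 h and 357441 and 318458 CPM at 0 h, whereas the epithelial miR-200 family, which represses ZEB1, summed to only 76.4 and 70.2 CPM at 3 h and 58.2 and 64.1 CPM at 0 h. Haematopoietic markers summed to 2.67 and 4.68 CPM at 3 h and 1.86 and 4.11 CPM at 0 h, and acinar and islet markers to 3.44 and 2.34 CPM at 3 h and 2.48 and 1.64 CPM at 0 h, with miR-217 at 0 in all 4 libraries. Fibroblast and endothelial markers summed to 843 and 702 CPM at 3 h and 651 and 743 CPM at 0 h, mostly miR-126-3p. Of them, miR-143-3p had 85.2 and 26.3 CPM at 3 h and 12.4 and 149 CPM at 0 h, a spread within each group far above that between them. miR-145-5p, miR-199a-3p and miR-214-3p were also highest in DMSO 0 h B, at 23.8, 36.2 and 4.93 CPM. In DMSO 0 h A they had 0, 7.43 and 0 CPM. miR-126-3p, in contrast, was lowest in DMSO 0 h B, at 529 CPM. Red blood cell markers summed to 315 and 333 CPM at 3 h and 325 and 393 CPM at 0 h, mostly miR-486-5p, and those of muscle, liver and neuron to 3.44 and 4.68 CPM at 3 h and 7.43 and 3.29 CPM at 0 h. In these bulk samples fewer cells of a type and less RNA per cell cannot be told apart. The serum and blood list of 5 tested members had a median of -0.05, and of -0.13 to 0.18 with 1 library left out.

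Entries that match tRNA, rRNA, snoRNA or repeats, a sign of RNA quality, summed to 4229.8 and 4366 CPM at 3 h and 5369.9 and 6555 CPM at 0 h, so both 3 h libraries were lower. Of 20 tested, 5 were positive and 15 negative, the median log2 fold change was -0.37 (-0.58 without DMSO 3 h A, -0.15 without DMSO 3 h B), and 1, miR-619-5p, passed in the 4-library fit. miR-1260b, close to tRNA-Leu, had 829.9 and 696 CPM at 3 h and 1182 and 952 CPM at 0 h, and miR-4454, close to tRNA-His, had 2487 and 2921 CPM at 3 h and 3016 and 4591 CPM at 0 h. These values moved with the comparison, as did the unnamed share, and their part in the results above was not tested. The TMM factors were 0.948 and 0.960 at 3 h and 1.04 and 1.08 at 0 h.

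The PA 3 h libraries share DMSO 0 h as the earlier point and are given beside DMSO 3 h as values. miR-146a-5p had 32181 and 34498 CPM with PA at 3 h, miR-10a-5p 25413 and 26768, miR-186-5p 2279.7 and 1999 and miR-4802-3p 129 and 128. These miRNAs were chosen for their difference from the same DMSO 0 h libraries, so nothing is read from the side on which the PA 3 h values lie. For miR-10b-5p, which did not pass for both 3 h groups in a fit of 6 libraries, PA 3 h had 312 and 271 CPM. With both 3 h groups against DMSO 0 h, 0 of 810 entries passed (0%; edgeR, smallest adjusted p 0.220, 86 at an unadjusted p under 0.05). That count was 57 without DMSO 0 h B, 136 and 134 without DMSO 12 h A and B, and 148 without PA 24 h B. In the fit of those 6 libraries alone, 31 of 696 passed (4.45%), 7 higher and 24 lower.

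At later times of DMSO more entries passed in the 14-library fit. Against DMSO 0 h there were 103 at 12 h (12.7%), 52 higher and 51 lower, and 29 at 24 h (3.58%), 8 higher and 21 lower; 88 differed between 12 h and 3 h (10.9%) and 10 between 24 h and 3 h (1.23%). These comparisons share libraries with the 3 h one. Their counts moved with single libraries: for 12 h against 0 h, 40 passed without DMSO 0 h A, 54 without DMSO 0 h B and 59 without DMSO 12 h B. For 12 h against 3 h, 31 passed without DMSO 3 h A, 17 without DMSO 3 h B and 57 without DMSO 12 h B, and leaving out any 1 library gave 10 to 50 for 24 h against 0 h and 0 to 23 for 24 h against 3 h. miR-146a-5p averaged 25640.4 CPM at 0 h and 36038 at 3 h, and its libraries were at 60503 and 57798 CPM at 12 h and 46303 and 41188 at 24 h. Against 0 h its log2 fold change was 1.21 at 12 h (edgeR adjusted p = 0.000134) and 0.77 at 24 h (0.00401, with the 24 h call lost in 3 of the 14 fits that leave out 1 library). miR-96-5p took another course, with 1639 and 938 CPM at 12 h and 5209 and 4293 at 24 h, and was lower at 12 h than at 3 h by 1.85 on the log2 scale (edgeR adjusted p = 0.00244). miR-380-5p and miR-4802-3p were lower at 24 h than at 0 h, at -1.86 and -2.56 on the log2 scale (edgeR adjusted p = 0.00175 for each). Both, like miR-146a-5p and miR-96-5p, had been chosen for their difference between the same DMSO 3 h and DMSO 0 h libraries. The tests of later times share those libraries, so the choice may enlarge these differences. Neither miR-380-5p nor miR-4802-3p passed for 24 h against 3 h, where miR-4802-3p had -1.47 (edgeR adjusted p = 0.0756).

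**Figure D4:**
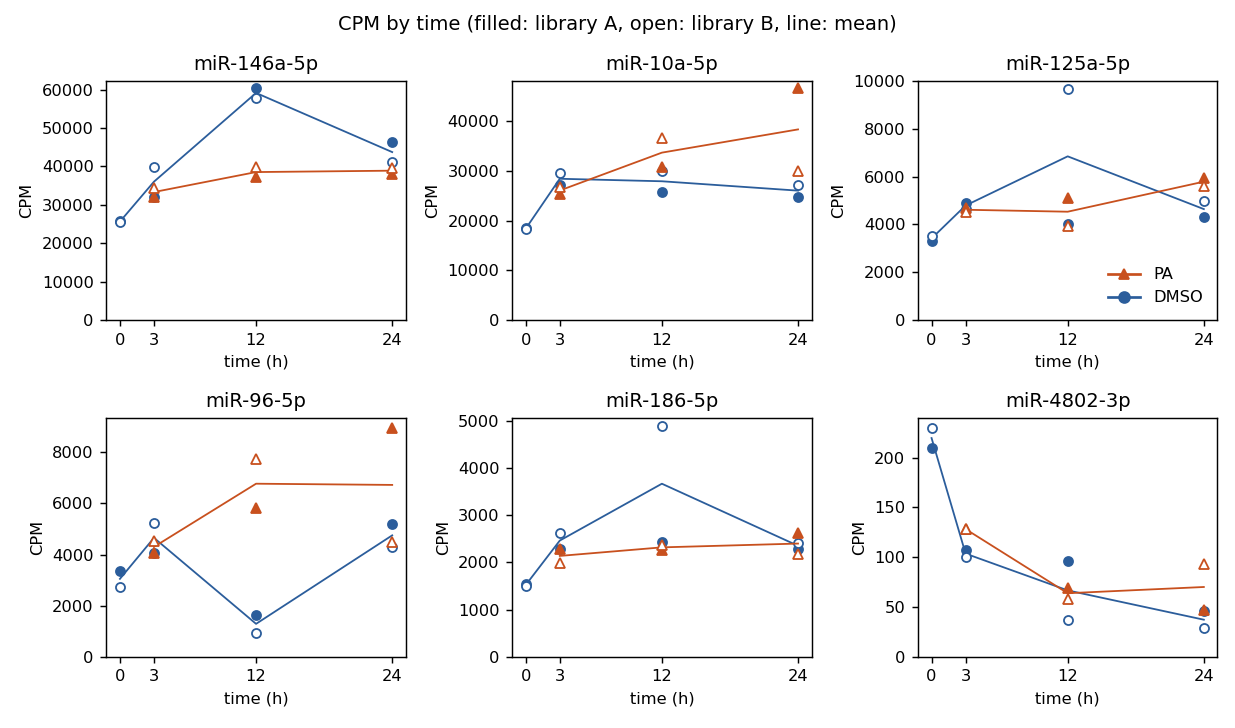
CPM of 6 of the 17 miRNAs by time, with circles and a blue line for DMSO at 0, 3, 12 and 24 h and triangles and an orange line for PA at 3, 12 and 24 h; filled symbols are library A, open ones library B, lines the means. Among the DMSO means, miR-96-5p is lowest at 12 h, where miR-146a-5p is highest.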

How the data were processed

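Small RNA was sequenced from 14 PANC-1 libraries, 2 per group, in 4 DMSO groups (0 to 24 h) and the PA groups. The authors deposited whole-number read counts per mature miRNA entry, and a TPM table of the same counts that was not used here. The submitters' processing notes name GRCh38, Bowtie, bcl2fastq and edgeR. Not given in the sources used here are versions, annotation release, strand use and how multi-mapping reads were treated. Extraction was with Trizol, per the labels' protocols.

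The test was edgeR 4.0.16 under R 4.3.3 (TMM, robust quasi-likelihood F test, filterByExpr with minimum count 10 and minimum total 15) in 1 fit of all 14 libraries by group. Entries passed at a Benjamini-Hochberg adjusted p under 0.05 over the entries tested. The common biological coefficient of variation was 0.203. Intervals are 95%, and those of ratios of counts are exact and cover counting error only, since PCR copies are not independent molecules. The edgeR procedure was tested in the 14-library fit only, on simulated data with 200 changed entries. Each simulated entry had the same dispersion in every group, and the fits of 4 and 6 libraries were not simulated. The members and lists were chosen with earlier results of these data known. Named entries were any that passed, then the smallest p up to 20, the 10 most abundant, and the 2 most abundant tested members of each list. The alternatives were other scalings, filters, libraries in the fit, DESeq2 1.42.0, a replicate block and each library left out. Libraries with the same letter did not deviate together, so the letters were not taken as pairs. A and B differed beyond counting error in both groups, with a chi-square per degree of freedom of 13.4 at 3 h and 26.6 at 0 h. Host genes are from GENCODE on GRCh38 and sequences from RefSeq.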

Additional observations from a re-analysis of the deposited data

Results flagged for a closer look

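For 13 of the 68 named entries the value under DMSO at 12 h differed from that at 3 h in the 14-library fit (edgeR, adjusted p under 0.05). This is the difference between their changes since 0 h. Over all entries tested, 88 of 810 (10.9%) differed. The named entries were chosen in part for abundance or a small p. Of the 13, the log2 difference, 12 h minus 3 h, was positive for miR-146a-5p (0.71) and miR-486-5p (0.81). It was negative for miR-21-5p (-0.52), miR-27a-3p (-0.82), miR-29a-3p (-0.50), miR-29b-3p (-0.87), miR-30e-5p (-0.97), miR-130b-3p (-0.78), miR-181a-5p (-0.64), miR-96-5p (-1.85), miR-107 (-0.55), miR-210-3p (-0.61) and miR-126-3p (-0.77). With each of the 14 libraries left out in turn, miR-27a-3p and miR-96-5p passed in all 14 fits, and the others lost the call in at least 1. Of the 14 fits, miR-146a-5p passed in 13, miR-30e-5p passed in 13, miR-29b-3p passed in 12, miR-486-5p passed in 12, miR-130b-3p passed in 11, miR-126-3p passed in 11, miR-29a-3p passed in 9, miR-21-5p passed in 7, miR-181a-5p passed in 7, miR-210-3p passed in 6 and miR-107 passed in 4. The smallest share was that of miR-107, whose adjusted p reached 0.187 over the alternatives. The first principal component placed the DMSO 12 h pair at 15.3 and 25.5 and every other library at 2.62 or below, and the part of this in these differences was not tested.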

How the results depend on the processing

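The count of 0 entries for DMSO 3 h against DMSO 0 h was the same under every 14-library alternative, including each library left out, and with only the 8 DMSO libraries. The exceptions were smaller fits, which also tested fewer entries: 17 passed with only the 4 libraries compared and 17 with 6 libraries. With only the 4 libraries compared, DESeq2 called 17, library totals 18, DESeq2 size factors 7 and edgeR without robust estimation 11. These alternatives were chosen after seeing the data. Leaving out 1 library gave 0 in each of the 14-library fits and 79, 28, 6 and 1 in the 4-library fit. For both 3 h groups against DMSO 0 h, 8 passed with no filter, 31 with 6 libraries, and 0 with any library left out. The replicate block by letter gave 0 and the crossed replicate block 0; same-letter deviations of the DMSO 3 h and DMSO 0 h pairs correlated at -0.102, and none of 21 pairs of groups exceeded 0.1. For DMSO 12 h against 0 h leave-outs gave 40 to 124. For 12 h against 3 h they gave 17 to 95, and the 8 DMSO libraries gave 53. For 24 h against 0 h they gave 10 to 50, no filter 48, named miRNAs only 14 and the 8 DMSO libraries 16. For 24 h against 3 h they gave 0 to 23, no filter 18, at least 10 CPM in 2 libraries 6, named miRNAs only 2, DESeq2 22 and the 8 DMSO libraries 0. The cause of these shifts was not tested.

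Of 68 named entries, 51 kept their direction under every alternative and 17 turned at least once, all with log2 fold changes that did not pass. With library totals the log2 fold changes of DMSO 3 h over DMSO 0 h were -0.12 for miR-100-5p, -0.11 for miR-27b-3p, -0.096 for miR-103a-3p, -0.087 for miR-29a-3p, -0.084 for miR-107, -0.083 for miR-192-5p, -0.054 for miR-24-3p, -0.041 for miR-183-5p, -0.038 for miR-181a-5p, -0.037 for miR-27a-3p, -0.0059 for miR-130a-3p and -0.0024 for miR-30a-5p. Leaving out 1 library gave ranges of -0.046 to 0.16 for miR-100-5p (turned without DMSO 0 h A, at -0.046), -0.074 to 0.25 for miR-107 (turned without DMSO 0 h B, at -0.074), -1.58 to 2.20 for miR-143-3p (turned without DMSO 0 h B and DMSO 3 h B, at 2.20 and 0.11), -0.041 to 0.32 for miR-181a-5p (turned without DMSO 0 h A, at -0.041), -0.099 to 0.29 for miR-183-5p (turned without DMSO 3 h B, at -0.099), -0.46 to 0.29 for miR-200a-3p (turned without DMSO 0 h B, DMSO 3 h B and PA 24 h B, at 0.29, 0.061 and 0.0033), -0.014 to 0.17 for miR-27b-3p (turned without DMSO 0 h A, at -0.014), -0.12 to 0.076 for miR-30e-5p (turned without DMSO 3 h A and PA 24 h B, at 0.016 and 0.076), -0.14 to 0.091 for miR-320a (turned without DMSO 0 h A, DMSO 3 h A and PA 24 h B, at 0.091, 0.032 and 0.077) and -0.28 to 0.024 for miR-486-5p (turned without DMSO 0 h B, at 0.024). The depth limits low entries most: below 10 CPM the quartiles of the log2 fold changes were -0.89 and 0.28, against 0.02 and 0.25 above 1000 CPM. A p that misses the threshold does not show that the groups did not differ.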
